A study of Mus musculus with 4 samples.

Results

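The 10 genes described here, Nfe2l2, Sod2, Slc7a11, Gclm, Gclc, Nqo1, Txnrd1, Srxn1, Gpx3 and Prdx1, belong to the oxidative stress response and to the program of the transcription factor NRF2. All are protein-coding genes; by the GENCODE vM21 annotation of GRCm38, Slc7a11 lies at chr3:49892526-50443614, Sod2 at chr17:13006846-13040063, Gpx3 at chr11:54902453-54910377 and Nfe2l2 at chr2:75675513-75704641, and the UMIs were counted per gene, not per exon. They were taken by symbol from the 32285 genes measured in dissociated mouse lungs, and all 10 were found, each under 1 gene identifier. Lungs came from mice with an edited Galt gene (GAL, 2 libraries) and from wild-type mice (WT, 2 libraries), and single cells were captured in droplets and counted as unique molecular identifiers (UMIs). Galt encodes galactose-1-phosphate uridylyltransferase, which acts in the breakdown of galactose. The labels give the genotype and the tissue; the kind of edit and the strain, age and sex of the mice are not given in the sources used here, nor is the number of mice behind a library, and no treatment beyond the edit is named.

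NRF2, the product of Nfe2l2, is a transcription factor that KEAP1 marks for degradation in unstressed cells. Oxidants and electrophiles block that step, and NRF2 then binds antioxidant response elements with a small MAF protein and raises genes of glutathione synthesis, of the thioredoxin system and of quinone reduction. In the lung the response is known for its part in defence against inhaled oxidants and against the oxidant burst of neutrophils and macrophages. Slc7a11, Gclm, Gclc, Nqo1, Txnrd1, Srxn1 and Prdx1 are well-known NRF2 targets; Sod2 is better known as a target of NF-kB, and Gpx3 encodes a secreted glutathione peroxidase.

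RefSeq promoter windows (build GRCm38.p6, 250 bases before to 50 bases after the gene start, read 5′ to 3′ on the gene's strand) were on hand for 9 of the 10 genes, in 11 windows because Txnrd1 has 3; Gclc is named only. The windows were searched on both strands for TGACNNNGC, the core of the antioxidant response element. It was found in 1 window each of Nfe2l2, Gclm, Srxn1, Prdx1 and Txnrd1, and 12.4% of all 32851 windows of this length hold it. 4 windows are shown to set targets with and without these letters beside each other, with the match in capitals; all 3 matches shown lie on the opposite strand and so stand here as its reverse complement.
Prdx1 (chr4:116685349-116685648, plus strand): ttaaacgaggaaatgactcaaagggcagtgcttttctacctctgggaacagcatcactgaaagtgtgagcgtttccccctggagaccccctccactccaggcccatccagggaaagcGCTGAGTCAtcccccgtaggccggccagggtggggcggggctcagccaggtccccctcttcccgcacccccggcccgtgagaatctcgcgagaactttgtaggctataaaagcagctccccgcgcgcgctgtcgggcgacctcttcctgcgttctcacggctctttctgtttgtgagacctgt
Gclm (chr3:122245307-122245606, plus strand): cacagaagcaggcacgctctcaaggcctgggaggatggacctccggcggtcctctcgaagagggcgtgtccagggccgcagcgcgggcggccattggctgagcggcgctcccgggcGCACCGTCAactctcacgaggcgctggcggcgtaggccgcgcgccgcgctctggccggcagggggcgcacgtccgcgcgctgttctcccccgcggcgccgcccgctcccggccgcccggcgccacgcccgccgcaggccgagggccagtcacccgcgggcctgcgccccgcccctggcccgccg
Srxn1 (chr2:152105274-152105573, plus strand): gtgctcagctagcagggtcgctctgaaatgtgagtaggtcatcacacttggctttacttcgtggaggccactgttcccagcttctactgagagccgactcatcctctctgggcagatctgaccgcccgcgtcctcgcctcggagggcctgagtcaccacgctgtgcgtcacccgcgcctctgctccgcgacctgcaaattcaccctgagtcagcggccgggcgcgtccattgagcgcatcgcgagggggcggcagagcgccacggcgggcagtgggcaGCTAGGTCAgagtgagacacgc
Slc7a11 (chr3:50443564-50443863, minus strand): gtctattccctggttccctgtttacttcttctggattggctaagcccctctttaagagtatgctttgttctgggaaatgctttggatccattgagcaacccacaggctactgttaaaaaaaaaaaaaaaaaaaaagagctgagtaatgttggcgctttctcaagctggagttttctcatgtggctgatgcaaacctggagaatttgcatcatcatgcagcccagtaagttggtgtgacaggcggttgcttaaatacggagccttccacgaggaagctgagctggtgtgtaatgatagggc
The match in Prdx1 reads TGACTCAGC on its own strand and so contains TGACTCA, the AP-1 motif, which 5.20% of all windows hold on either strand; the Srxn1 window holds TGACTCA as well, outside its match. The Slc7a11, Gpx3, Sod2 and Nqo1 windows hold no match, which says only that these letters are absent from these windows.

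The 4 libraries held 56218178 to 62406681 UMIs. The cells kept numbered 10967 and 10757 in the GAL libraries and 12441 and 13515 in the WT libraries, with medians of 3709 and 2841 UMIs per GAL cell and 2361 and 2363 UMIs per WT cell. Cells were assigned to types by gates on fixed marker lists that hold none of the 10 genes. Gates are called by the cell type whose markers they carry, although no protein was measured, and 19 of 32 gates held at least 30 cells in every library. The 10 leading genes of each of these 19 gates included 1 to 6 of its own markers and at most 1 of another list. GAL replicate 2 held 0 alveolar type 2 cells, against 341 in GAL replicate 1 and 62 and 52 in the WT libraries, so the surfactant-producing epithelium was not compared. Between 92 and 115 cell barcodes were shared by any pair of libraries, at most 0.939% of a library's cells. Galt was at 13.4 and 10.6 CPM (UMI counts scaled to a common library total) in the GAL libraries and at 11.4 and 11.4 CPM in the WT libraries, and since the edited part of the gene is not given, this level does not check the genotype.

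Levels are in CPM, with all UMIs of the summed cells of a gate and library as the total, and levels are compared only within a gene. Each gate was also tested against the mean of the other 18 by edgeR's quasi-likelihood test on the summed counts, with p-values adjusted over all 13180 genes tested and a gene called at an adjusted p under 0.05. Such calls are common: 45.7% of all gene and gate pairs passed, and of the 10 genes 9 were tested in 19 gates, with 114 of 171 pairs called, 61 higher and 53 lower, where 28.8% of all pairs were called higher and 16.9% lower. Nqo1 was too sparse for this test. Slc7a11, which is in the count, had 7 gates called higher, 0 lower and 12 not called. In those 12 its standard error was at least 26 log2 units, so they could not be called.

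**Figure D1:**
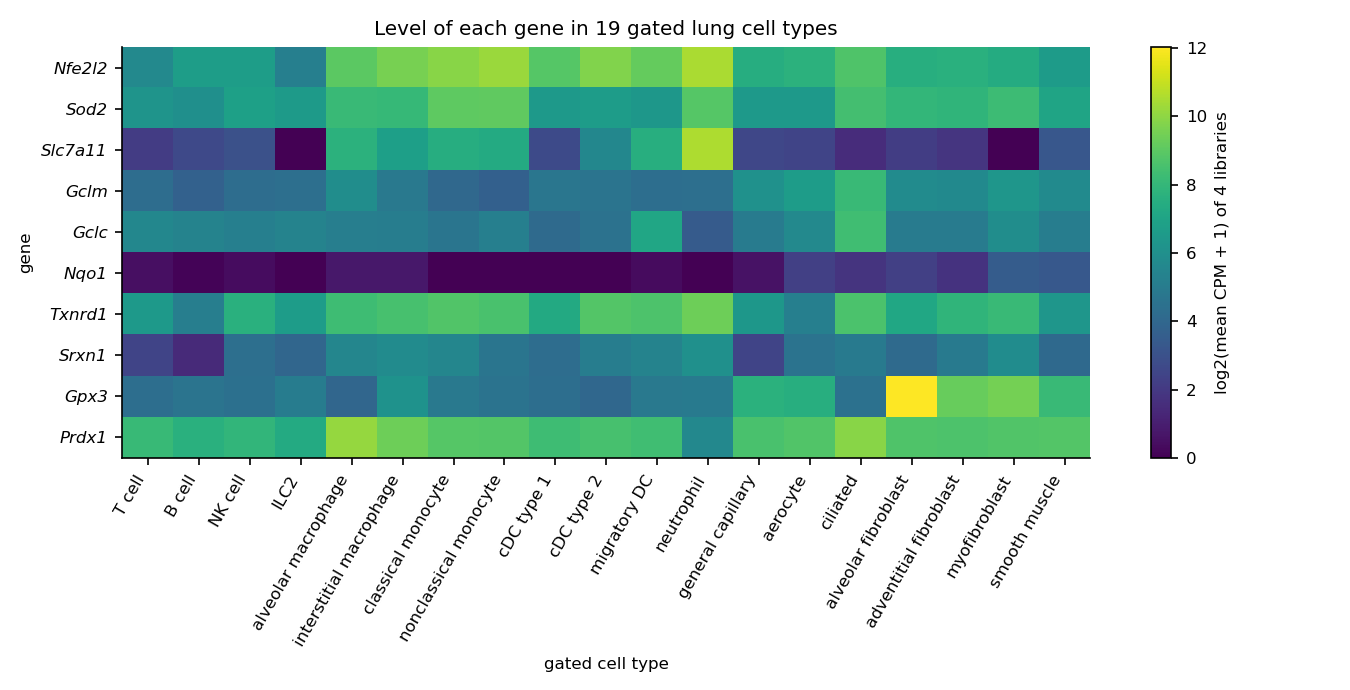
Mean CPM over 4 libraries of the 10 genes (rows) in 19 gated cell types (columns), coloured as log2(mean CPM + 1); NK is natural killer, ILC2 group 2 innate lymphoid, DC dendritic and cDC conventional dendritic cell. Along the rows, Slc7a11, Txnrd1 and Nfe2l2 are highest in the neutrophil gate, Gclm and Gclc in the ciliated gate, Prdx1 in the alveolar macrophage gate and Gpx3 in the alveolar fibroblast gate.

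Nfe2l2, the regulator itself, was highest in myeloid gates. Neutrophils held 1361 and 1529 CPM in the GAL libraries and 1540 and 1360 CPM in the WT libraries, and the next gate, nonclassical monocytes, held 1296 and 1251 CPM in GAL and 1258 and 941 CPM in WT. Every neutrophil library was above every nonclassical monocyte library. Classical monocytes, type 2 conventional dendritic cells and interstitial macrophages followed with means of 954 ± 181, 861 ± 167 and 764 ± 76.1 CPM (SD over 4 libraries, as in all gate means here), with overlapping ranges. At the other end, T cells averaged 49.6 ± 8.22 CPM and group 2 innate lymphoid cells 35.2 ± 25.3 CPM. The neutrophil level was 3.37 ± 0.08 log2 units (standard error) above the mean of the other gates (edgeR quasi-likelihood, adjusted p = 7.6e-51). Nfe2l2 was called higher in all 8 gates of monocytes, macrophages, dendritic cells and neutrophils and lower in 10, which were the lymphocyte, endothelial, fibroblast and muscle gates; ciliated cells were not called.

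Sod2, the superoxide dismutase of mitochondria, had its highest means in the same cells, but with wide spread between libraries. Nonclassical monocytes averaged 537 ± 313 CPM, classical monocytes 527 ± 292 CPM and neutrophils 466 ± 146 CPM, and their ranges overlapped. Below them stood ciliated cells, in which the 4 libraries lay between 339 and 351 CPM. Against the mean of the other gates, nonclassical monocytes were 1.72 ± 0.17 (adjusted p = 3.8e-14) and neutrophils 2.40 ± 0.16 log2 units higher (adjusted p = 9.3e-24; both by edgeR's quasi-likelihood test). B cells were the lowest, at 63.1 ± 8.72 CPM. In both monocyte gates the GAL libraries were above the WT libraries.

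The glutathione genes had separate patterns. Slc7a11 encodes xCT, the transporter that brings in cystine in exchange for glutamate, and its level in neutrophils was 1513 and 1913 CPM in the GAL libraries and 1093 and 1445 CPM in the WT libraries. Alveolar macrophages came second at 209 ± 146 CPM, so the neutrophil mean was 7.14 times the next one and no neutrophil library overlapped any other gate's. Migratory dendritic cells held 186 ± 45.1 CPM, classical monocytes 181 ± 131 CPM, nonclassical monocytes 165 ± 144 CPM and interstitial macrophages 109 ± 66.9 CPM. Type 2 conventional dendritic cells stood apart from the gates below them at 46.2 ± 27.1 CPM, and no other gate reached a mean of 10 CPM. In group 2 innate lymphoid cells 0 UMIs were counted, which allows up to 5.92 CPM, and in myofibroblasts 0 UMIs, which allows up to 6.86 CPM (3 counts over the gate; counting error only).

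Those empty gates make the mean of logs an unfit yardstick for Slc7a11, so each gate was also tested against the other 18 gates summed per library, an alternative chosen after seeing the data, by which 54.1% of all gene and gate pairs were called, 21.8% higher and 32.3% lower. By that test neutrophils were 5.16 ± 0.15 log2 units above the rest (edgeR quasi-likelihood, adjusted p = 8.05e-259). The size of p is not comparable between gates by this test. An F of 1209 gave that value in neutrophils, while an F of 1125 in T cells gave an adjusted p of 1.7e-10 by edgeR. Alveolar macrophages (1.33 ± 0.12), migratory dendritic cells (1.11 ± 0.16), classical monocytes (0.68 ± 0.17) and nonclassical monocytes (0.39 ± 0.16) were also called higher on this log2 scale. Interstitial macrophages were not called, and 13 gates were called lower, among them type 2 conventional dendritic cells (-1.01 ± 0.17). The test against the mean of the other gates had called these 2 named gates higher, at 3.69 ± 0.22 and 2.58 ± 0.30. In the sum, each gate counts by its UMIs. Of the 24832 Slc7a11 UMIs of the whole lungs, 11754 were in gated alveolar macrophages and 8052 in gated neutrophils.

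Gclc and Gclm encode the catalytic and the modifier subunit of glutamate-cysteine ligase, the first and limiting enzyme of glutathione synthesis. Both were highest in ciliated cells among the 19 gates. That gate held 177 cells, and Cyp2f2 of the club cell list was among its leading genes. The part of club cell RNA in its levels was not tested. Gclc held 297 and 362 CPM in GAL ciliated cells and 398 and 233 CPM in WT ciliated cells, and Gclm held 227 and 267 CPM in GAL and 280 and 362 CPM in WT. All 4 ciliated libraries were above every other gate for both genes. The excess over the mean of the other gates was 2.76 ± 0.14 log2 units for Gclc (adjusted p = 6.0e-30) and 2.73 ± 0.13 for Gclm (adjusted p = 3.2e-31; both by edgeR's quasi-likelihood test).

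Past the ciliated cells the subunits parted. Migratory dendritic cells held 136 ± 37 CPM of Gclc, every library above the gates that followed, at 2.32 ± 0.15 log2 units over the mean of the others (edgeR quasi-likelihood, adjusted p = 4.0e-23). The same gate held 19.6 ± 9.62 CPM of Gclm and was not called for it. Gclm was instead second in aerocytes, the gas-exchange capillary cells, at 99.3 ± 14.9 CPM. Neutrophils, the highest for Slc7a11, had the lowest mean of Gclc, 9.87 ± 4.35 CPM (log2 difference from the mean of the others -1.37 ± 0.26, adjusted p = 4.7e-06 by edgeR). Among gates too small to test, alveolar type 2 cells held 361 CPM of Gclc in GAL replicate 1 and 863 and 454 CPM in the WT libraries.

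**Figure D2:**
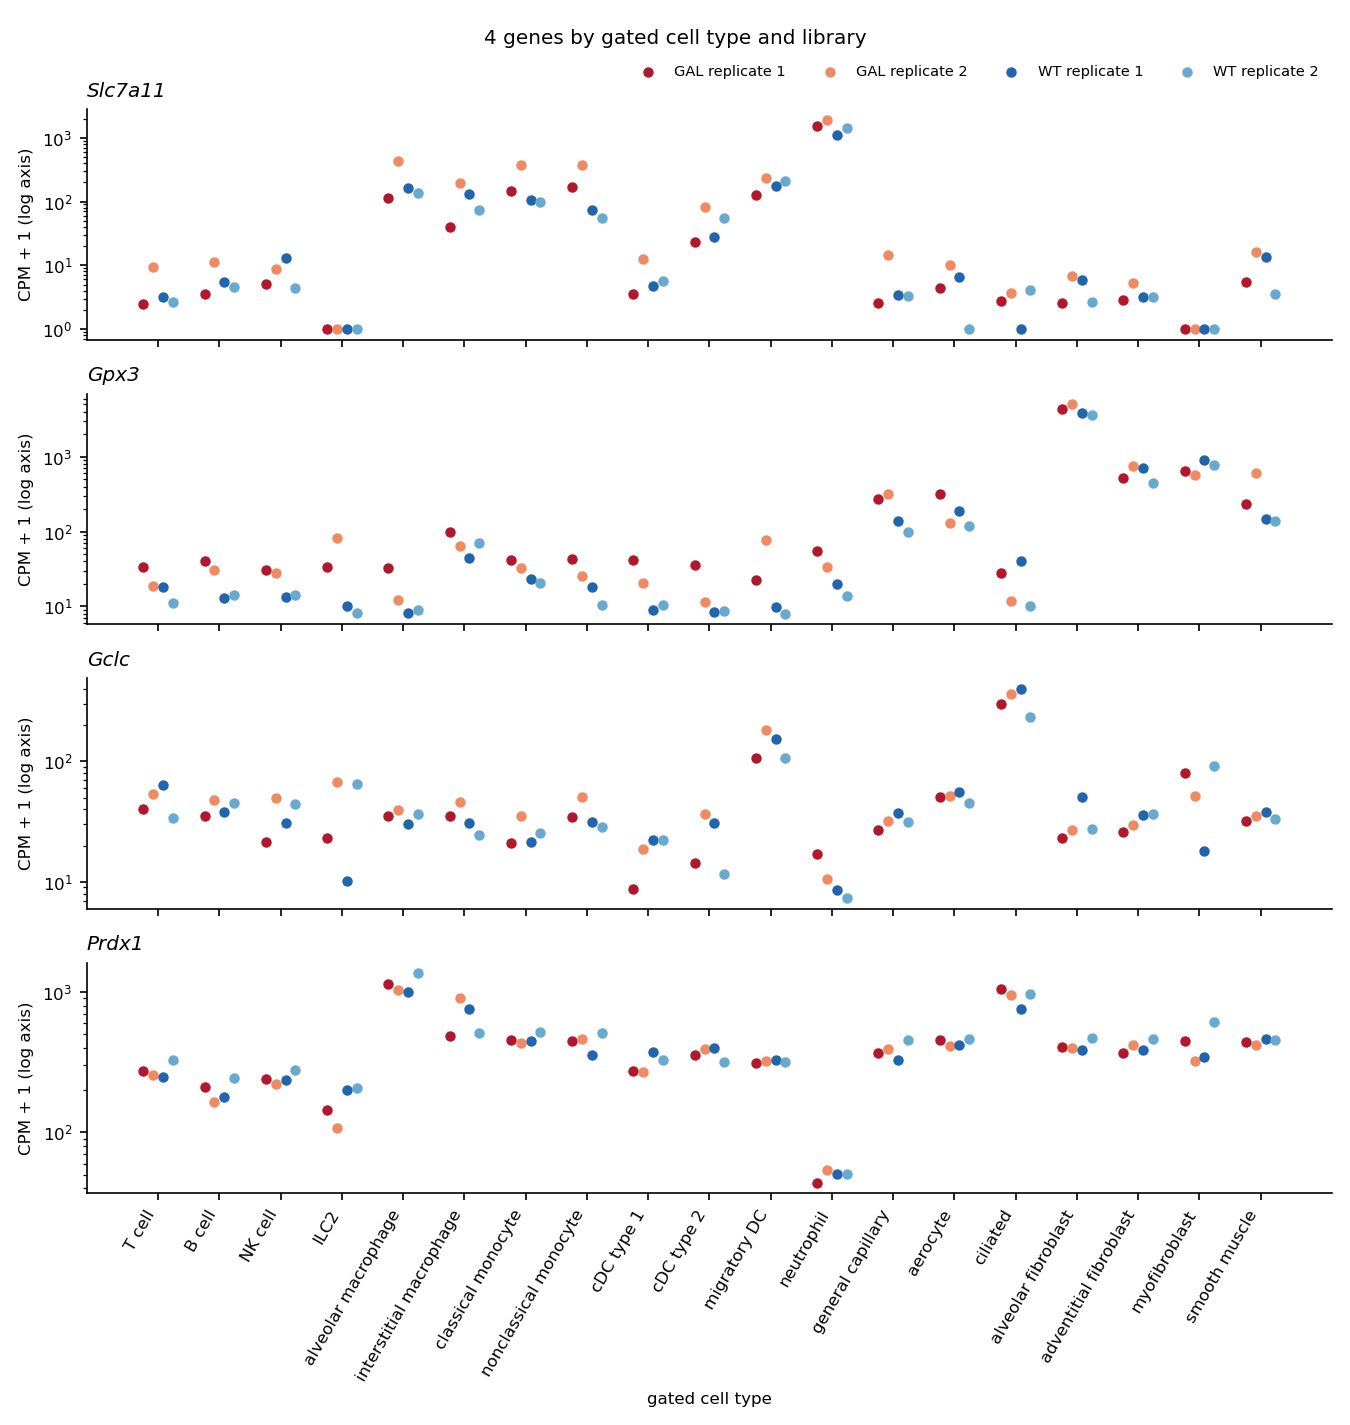
CPM + 1 on a log axis for Slc7a11, Gpx3, Gclc and Prdx1 in each of 4 libraries (points, GAL left of WT) across 19 gated cell types. Neutrophils stand above all gates for Slc7a11 and below all for Prdx1, and alveolar fibroblasts stand above all for Gpx3.

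Of the thioredoxin genes, Txnrd1, cytosolic thioredoxin reductase, was highest in neutrophils at 608 and 678 CPM in the GAL libraries and 701 and 682 CPM in the WT libraries. Those libraries did not overlap the next gate, type 2 conventional dendritic cells at 449 ± 89.4 CPM, and the excess over the mean of the other gates was 2.75 ± 0.11 log2 units (edgeR quasi-likelihood, adjusted p = 1.0e-36). Srxn1, sulfiredoxin, which repairs over-oxidised peroxiredoxins, had its highest mean there too, at 64.6 ± 13 CPM, but overlapped myofibroblasts at 55.9 ± 33.2 CPM and interstitial macrophages at 54.2 ± 16 CPM. Both genes had their lowest mean in B cells, at 34.8 ± 5.58 CPM for Txnrd1 and 1.74 ± 0.797 CPM for Srxn1.

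Prdx1, a peroxiredoxin that reduces hydrogen peroxide with electrons from thioredoxin, ran the other way. Alveolar macrophages held 1134 and 1030 CPM in GAL and 999 and 1358 CPM in WT, and ciliated cells 1056 and 953 CPM in GAL and 753 and 972 CPM in WT, with overlapping ranges. Alveolar macrophages were 1.84 ± 0.09 log2 units above the mean of the other gates (edgeR quasi-likelihood, adjusted p = 9.6e-32). Neutrophils were lowest at 48.7 ± 4.23 CPM, every library below every library of the gate above, with a log2 difference of -2.14 ± 0.15 from the mean of the others (adjusted p = 3.5e-22 by edgeR).

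Gpx3 was highest in mesenchymal gates. Alveolar fibroblasts held 4283 and 5021 CPM in the GAL libraries and 3819 and 3566 CPM in the WT libraries, 5.77 times the mean of myofibroblasts, which followed at 724 ± 140 CPM. Adventitial fibroblasts held 605 ± 145 CPM, and smooth muscle, general capillary and aerocyte cells between 186 and 282 CPM on average. Alveolar fibroblasts were 6.23 ± 0.13 log2 units above the mean of the other gates (edgeR quasi-likelihood, adjusted p = 3.1e-56). The 12 immune gates held means from 14.5 CPM in alveolar macrophages to 68.7 CPM in interstitial macrophages.

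Nqo1, the quinone reductase used as a marker of NRF2 activity in many tissues, had few counts. The whole lungs held 214 UMIs of it in all, at 1.69 and 0.768 CPM in the GAL libraries and 0.992 and 0.731 CPM in the WT libraries. In 6 of the 19 gates no UMI was counted, among them neutrophils and both monocyte gates, and 42 of the UMIs were in alveolar macrophages at a mean of 0.718 CPM. The highest mean was in myofibroblasts, at 10.4 ± 16.3 CPM with libraries from 0 to 34.4 CPM. Smooth muscle held 14 UMIs and 8.83 ± 4.26 CPM. The test against the other gates summed per library called smooth muscle higher (edgeR quasi-likelihood, adjusted p = 3.42e-06) and did not call myofibroblasts. By that test alveolar fibroblasts (2.23 ± 0.45 log2 units), aerocytes (2.03 ± 0.65) and adventitial fibroblasts (1.48 ± 0.44) were called higher too. B cells (-3.33 ± 1.02) and type 1 conventional dendritic cells (-7.24 ± 2.95) were called lower. The latter held 0 UMIs, so the size of that difference was not measured. The other gates with 0 UMIs had estimates from -7.32 to -7.10 and were not called. Outside the tested gates, lymphatic endothelial cells held 17 UMIs, 13 of them in GAL replicate 1.

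As a description over the 19 gate means, and over 6225 genes with a mean of at least 20 CPM, the genes whose pattern was most like each of these were as follows; the points share libraries and depth. Pearson's r of log2 CPM was 0.948 between Slc7a11 and Il1rn, 0.913 between Sod2 and Mgst1, 0.879 between Nfe2l2 and Gda, 0.979 between Gpx3 and Fmo2, and 0.936 between Nqo1 and Cald1. It was 0.937 between Gclm and Plcb3, 0.827 between Gclc and Sugt1, 0.845 between Txnrd1 and Snx10, and 0.908 between Prdx1 and Mtx2. For Srxn1 the gene most like it was another of the 10, Txnrd1, at 0.804. Among the pairs of the 10 genes, Nfe2l2 and Slc7a11 reached 0.803, while Gclm and Gclc, the subunits of 1 enzyme, reached 0.493.

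Around these 10, 71 other genes of the pathway were grouped in 7 lists, and 67 of them could be tested between gates. In neutrophils 35 were called higher and 20 lower, with a median of 0.76 log2 units against a median of -0.15 over all genes; in that gate 54.8% of all genes were called, 29.8% higher and 25% lower. The NADPH oxidase and other oxidant sources led, with 7 of 8 tested called higher and a median of 4.02. In glutathione and thioredoxin metabolism neutrophils were above the mean of the others for Gsr, glutathione reductase, by 5.46 ± 0.08 (adjusted p = 9.3e-66), and for Msrb1, a methionine sulfoxide reductase, by 5.83 ± 0.08 (adjusted p = 4.1e-67; all by edgeR). Cat, catalase, was lower there, at -2.65 ± 0.26 (adjusted p = 3.2e-15 by edgeR).

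Ciliated cells showed another set. Of 14 tested genes of glutathione synthesis, reduction and transfer, 10 were called higher and 2 lower, with a median of 2.40 log2 units against -0.09 over all genes, while 54.6% of all genes were called in this gate, 31% higher and 23.6% lower. The glutathione transferases Gsta4 (7.40 ± 0.19, adjusted p = 9.4e-50) and Gstm1 (3.75 ± 0.09, adjusted p = 1.0e-52) were among them, by edgeR. Of the oxidant sources 7 of 8 were called lower and 0 higher. In alveolar macrophages 45 of the 67 were called higher and 15 lower, with a median of 0.83 against 0.14 over all genes, where 58.7% of all genes were called, 41.8% higher and 16.8% lower.

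In the whole lung, GAL was compared with WT with 2 libraries on each side. Of 16821 genes tested, 0% were called by edgeR's quasi-likelihood test (918 at an unadjusted p under 0.05), and 31 by DESeq2. None of the 10 was called by edgeR. Gpx3 was at 608 and 287 CPM in the GAL libraries and at 175 and 174 CPM in the WT libraries, 1.31 ± 0.34 log2 units higher in GAL but with an adjusted p of 0.768 by edgeR. The difference was 0.76 log2 units without GAL replicate 1 and 1.68 without GAL replicate 2. The groups did not overlap, which was true in this direction of 18.1% of all genes. With gated cells drawn at random so that each gate had the same number of cells in every library, the difference was 0.45 log2 units. That draw left out ungated cells and gates that were empty in a library. GAL replicate 1, the higher library, held 716 alveolar fibroblasts against 224 in GAL replicate 2 and 240 and 258 in the WT libraries. In whole-lung sums, more cells of a type and more RNA per cell cannot be told apart.

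The other 9 differed by -0.24 to 0.59 log2 units in the whole lung. Slc7a11 was at 48.9 and 249 CPM in the GAL libraries and at 110 and 91.2 CPM in the WT libraries, so that the GAL libraries lay on both sides of the WT libraries, and without GAL replicate 2 the difference was -1.16 log2 units. GAL replicate 2 also held 1080 gated neutrophils, against 274 in GAL replicate 1 and 818 and 799 in the WT libraries. Prdx1 was at 536 and 554 CPM in GAL and at 608 and 667 CPM in WT, a difference of -0.24 ± 0.17 log2 units with an adjusted p of 0.772 by edgeR; the groups did not overlap, which was true in this direction of 16.1% of all genes.

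Within gates, 149 pairs of a member and a gate passed the filter on low counts, and 2 were called by edgeR, both in nonclassical monocytes; over all genes and gates 0.0226% of pairs were called. Nonclassical monocytes are the patrolling monocytes of the vessel wall. Slc7a11 was at 167 and 367 CPM in GAL nonclassical monocytes and at 71.7 and 53.6 CPM in WT nonclassical monocytes, 2.22 ± 0.37 log2 units higher in GAL (edgeR quasi-likelihood, adjusted p = 0.0272). Sod2 was at 616 and 944 CPM in GAL and at 338 and 251 CPM in WT, 1.51 ± 0.26 log2 units higher (adjusted p = 0.0321). Both GAL libraries were above both WT libraries for each. In this gate 0.351% of 5408 genes were called, all of them higher in GAL.

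**Figure D3:**
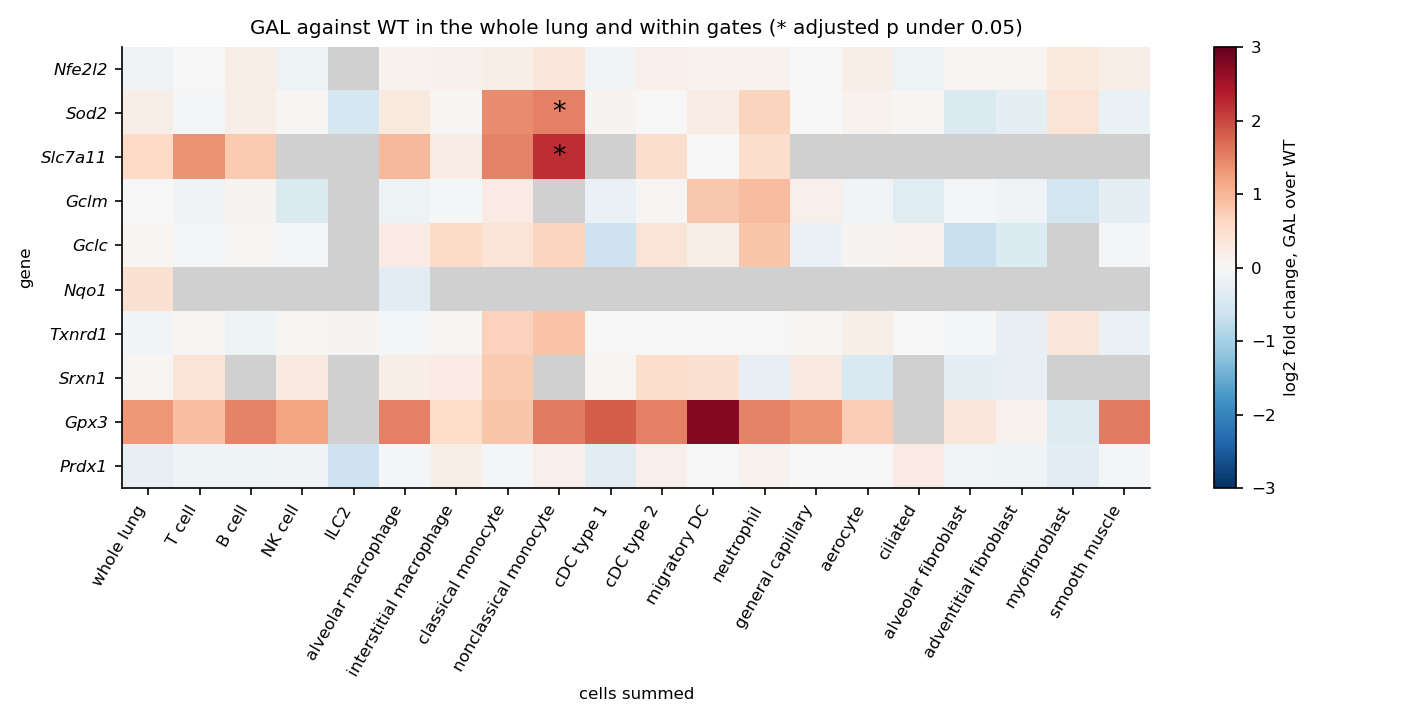
Log2 fold change of GAL over WT (colour) of the 10 genes (rows) in the whole lung and in 19 gated cell types (columns); grey cells did not pass the filter on low counts and an asterisk marks an adjusted p under 0.05. The asterisks are Slc7a11 at 2.22 and Sod2 at 1.51 in nonclassical monocytes, and Gpx3 is positive in 16 of its 17 tested gates.

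Those calls rest on few libraries and stand near the threshold. With RLE size factors the adjusted p was 0.0703 for Slc7a11 and 0.0736 for Sod2 by edgeR, neither called. The differences were 2.43 and 1.76 log2 units without WT replicate 1 and 1.54 and 1.16 without GAL replicate 2. The summed neutrophil markers were in this gate at 143 and 327 CPM in the GAL libraries and at 168 and 134 CPM in the WT libraries, against 99420 CPM or more in gated neutrophils. Neutrophil RNA in proportion to those markers would carry 1.93 and 4.42 CPM of Slc7a11 in GAL and 1.74 and 1.94 CPM in WT. For Sod2 it would carry at most 1.57 CPM. The gate leaves out cells that score high for the neutrophil list, so these proportions can be too low. The part of neutrophil RNA in the result was not tested. The summed alveolar type 2 markers were at 431 and 15.3 CPM in GAL nonclassical monocytes and at 98.1 and 74.3 CPM in WT nonclassical monocytes, and their part in the result was not tested.

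Of the other members in nonclassical monocytes, Txnrd1 was at 375 and 586 CPM in GAL and at 306 and 263 CPM in WT, 0.86 ± 0.25 log2 units higher (adjusted p = 0.205 by edgeR). This was 1.20 log2 units without GAL replicate 1 and 0.49 without GAL replicate 2. Gpx3 was 1.56 ± 0.46 higher (adjusted p = 0.203) and Gclc 0.64 ± 0.35 higher (adjusted p = 0.627), by the same test. Nfe2l2, which controls the program, was at 1296 and 1251 CPM in GAL and at 1258 and 941 CPM in WT, with overlapping groups and a difference of 0.31 ± 0.20. Gclm, Srxn1 and Nqo1 did not pass the filter, with 31, 61 and 0 UMIs over the 4 libraries. In all, both GAL libraries were above both WT libraries for 5 of the 7 members tested in this gate, as for 13.8% of its genes.

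Classical monocytes, which are recruited from blood and carry Ly6c2, had like values without a call. Slc7a11 was at 148 and 375 CPM in GAL classical monocytes and at 105 and 97.2 CPM in WT classical monocytes (1.49 ± 0.39 log2 units, adjusted p = 0.215 by edgeR). Sod2 was at 650 and 864 CPM in GAL and at 403 and 194 CPM in WT (1.42 ± 0.34, adjusted p = 0.193), and it was called there by DESeq2 (adjusted p = 0.0269). With 1 library left out, the edgeR difference ran from 0.54 to 2.00 log2 units for Slc7a11 and from 0.95 to 2.04 for Sod2. The lowest Slc7a11 difference was without GAL replicate 2, where Sod2 was at 1.11, and the lowest of Sod2 was without WT replicate 2. The gate comprised 77 and 137 cells in the GAL libraries, against 353 and 343 cells in the WT libraries. In classical monocytes 0% of 6955 genes were called (595 at an unadjusted p under 0.05), and both GAL libraries were above both WT libraries for 5 of the 9 members tested, as for 14.9% of genes. In neutrophils Slc7a11 was 0.54 ± 0.26 and Sod2 0.66 ± 0.29 log2 units higher in GAL, without overlap of the groups and not called by edgeR. Txnrd1 was at 608 and 678 CPM in GAL and at 701 and 682 CPM in WT. Of the 9 members tested in neutrophils, both GAL libraries were above both WT libraries for 5, as for 9.8% of genes. They were below for 1, as for 21.6% of genes. Without GAL replicate 2 the neutrophil differences were 0.30 for Slc7a11 and 0.20 for Sod2, and without WT replicate 1 that of Slc7a11 was 0.33 log2 units.

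**Figure D4:**
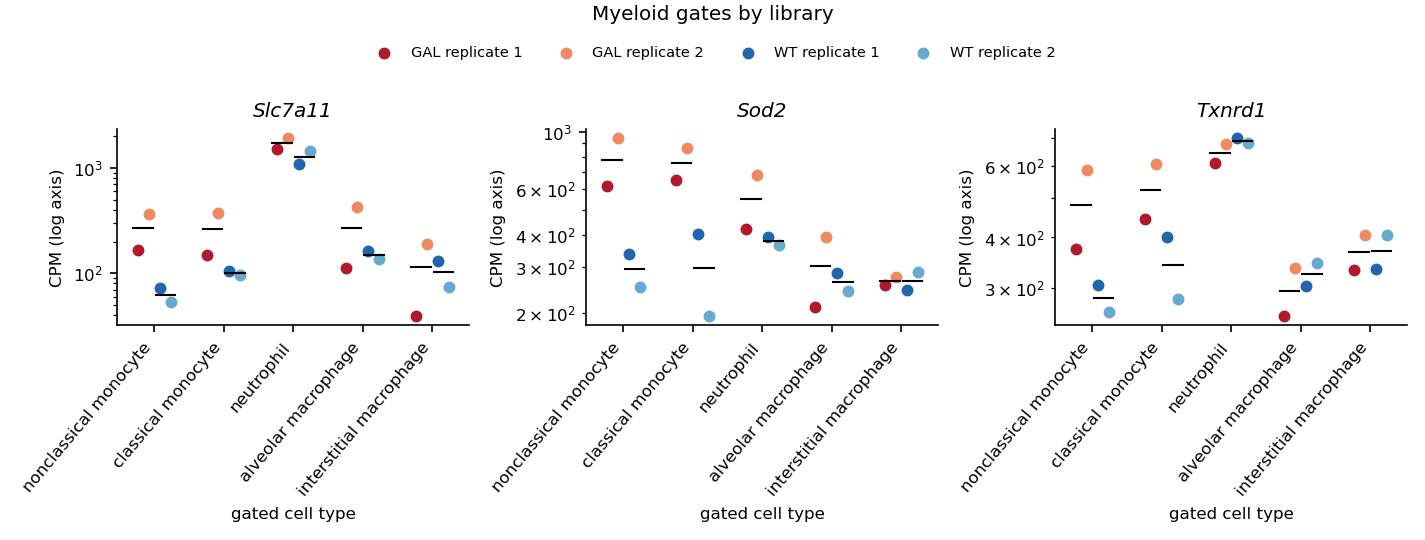
CPM (log axis) of Slc7a11, Sod2 and Txnrd1 in 5 myeloid gates, with a point for each library and a line at the mean of each genotype (GAL left, WT right). In both monocyte gates both GAL points lie above both WT points for all 3 genes, while in both macrophage gates they overlap.

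In alveolar macrophages, the resident macrophages of the air space, GAL replicate 2 alone stood out for Slc7a11. The level was 111 and 425 CPM in the GAL libraries and 162 and 136 CPM in the WT libraries (0.97 ± 0.65 log2 units, adjusted p = 0.994 by edgeR). The gated cells fell mostly into clusters 7 and 29, built from variable genes of these cells. Slc7a11 was not kept out of those genes, so it may have helped to set the clusters apart. Cluster 29 held 73.1% of the gated cells of GAL replicate 2, against 31.0% in GAL replicate 1 and 29.3% and 31.4% in WT. Within cluster 29 Slc7a11 was at 233 and 503 CPM in GAL and at 301 and 295 CPM in WT; within cluster 7 it was at 44.9 and 119 CPM in GAL and at 63.9 and 54.9 CPM in WT. GAL replicate 2 was the highest library in both clusters. Interstitial macrophages gave 38.9 and 191 CPM in GAL and 132 and 73.5 CPM in WT, again with GAL on both sides. Without GAL replicate 2 the difference was -1.43 log2 units.

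Gpx3 was the member with the most even direction. Its difference between GAL and WT was positive in 16 of 17 tested gates, with both GAL libraries above both WT libraries in 13 of them, where 12.9% of all gene and gate pairs had that order and 17.7% the opposite one, yet no gate was called. The closest was the general capillary gate, at 272 and 315 CPM in GAL and at 136 and 98.5 CPM in WT (1.34 ± 0.23 log2 units, adjusted p = 0.0778 by edgeR). With 1 library left out the difference ran from 1.11 to 1.61 log2 units. By DESeq2 Gpx3 was called there (adjusted p = 0.000805). The summed markers of alveolar fibroblasts moved with it in this gate, at 402 and 604 CPM in GAL and at 227 and 216 CPM in WT. Alveolar fibroblast RNA in proportion to them would carry 156 and 237 CPM of Gpx3 in GAL and 88.5 and 65.2 CPM in WT. The gate leaves out cells that score high for the fibroblast list, so this proportion can be too low. The part of fibroblast RNA in the result was not tested. Smooth muscle held 234 and 611 CPM in GAL and 147 and 137 CPM in WT (1.56 ± 0.41 log2 units, not called by edgeR). Its difference was 2.13 log2 units without GAL replicate 1 and 0.78 without GAL replicate 2. In alveolar fibroblasts, which hold the most Gpx3, the difference was 0.34 ± 0.16 log2 units (adjusted p = 0.936 by edgeR). The groups did not overlap, as for 16.3% of genes of this gate in this direction. In myofibroblasts both GAL libraries were below both WT libraries, as for 19.1% of genes there. Gpx3 was at 651 and 575 CPM in GAL and at 893 and 776 CPM in WT myofibroblasts (adjusted p = 0.995 by edgeR).

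In immune gates the Gpx3 levels were low, and the fibroblast markers in those gates were also higher in GAL on the median. Over the 12 immune gates the median level was 36.8 and 28.3 CPM in the GAL libraries and 12.2 and 9.73 CPM in the WT libraries. The summed markers of alveolar fibroblasts in the same gates had medians of 71.9 and 42.5 CPM in GAL and 29.0 and 30.4 CPM in WT, and both GAL libraries were above both WT libraries in 7 of the 12 gates. Alveolar fibroblast RNA in proportion to those markers would carry a median of 27.9 and 16.7 CPM of Gpx3 in GAL and 11.3 and 9.15 CPM in WT. The counted level was above that proportion in 9 and 11 of the 12 gates in GAL and in 10 and 8 in WT. The gates leave out cells that score high for the fibroblast list, so that proportion can be too low. Another source of Gpx3 in these gates was not tested. The part of fibroblast RNA in the immune levels was not tested.

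**Figure D5:**
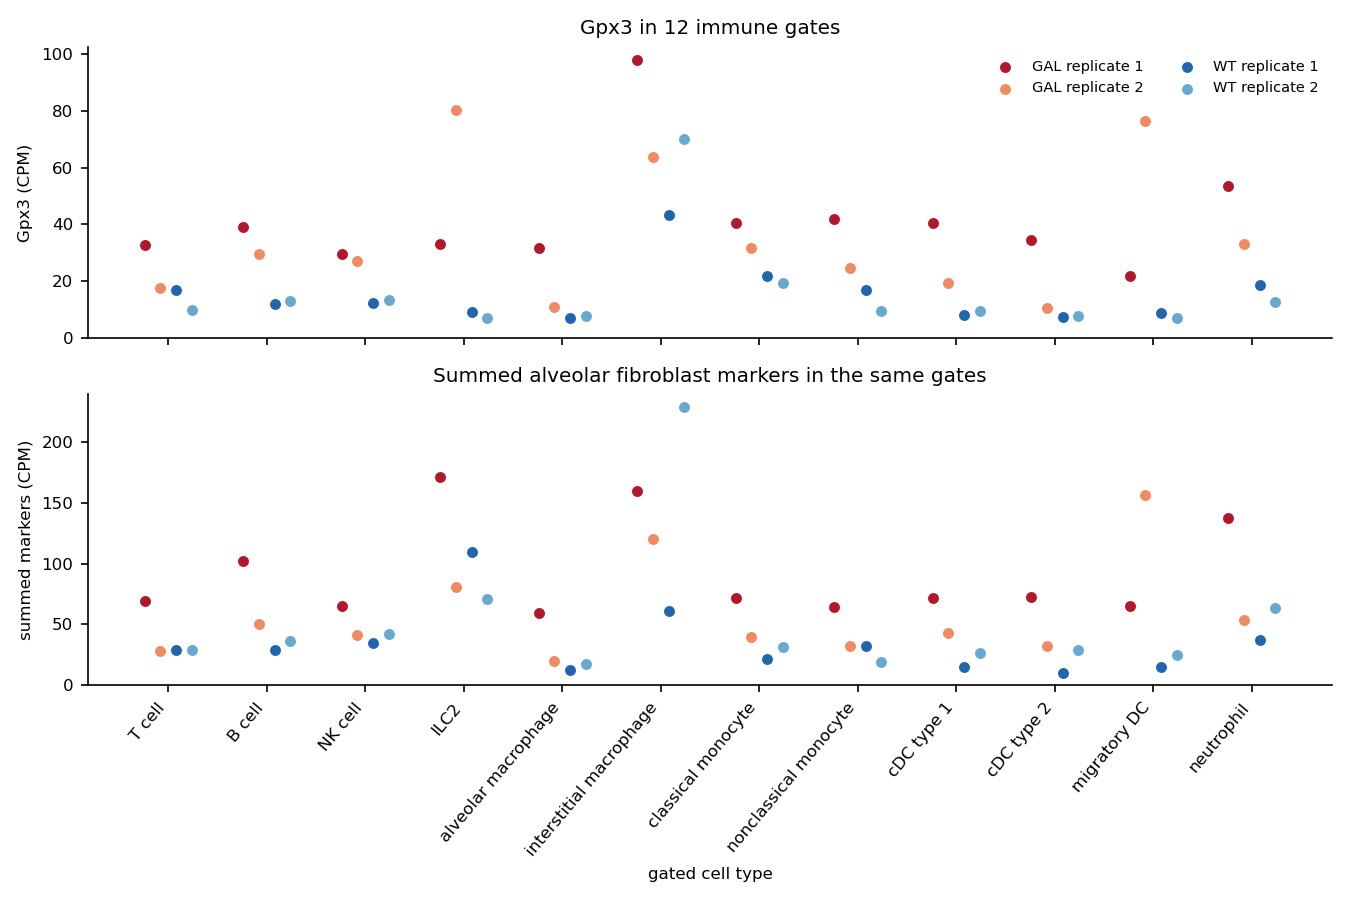
Gpx3 (upper panel, CPM) and the summed markers of alveolar fibroblasts (lower panel, CPM) in 12 immune gates, with a point for each library (GAL left of WT). The GAL points have medians of 36.8 and 28.3 CPM for Gpx3, against 12.2 and 9.73 CPM in WT, and both GAL libraries are above both WT libraries for the markers in 7 of the 12 gates.

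The remaining members showed small or mixed differences between the genotypes. Nfe2l2 ranged from -0.15 to 0.31 log2 units over 18 tested gates and Prdx1 from -0.61 to 0.25 over 19 gates. For Nfe2l2 the groups did not overlap only in ciliated cells, with GAL below WT, as for 17.7% of genes of that gate. Gclm ranged from -0.56 to 0.96 over 17 gates. It was higher in both GAL libraries in neutrophils, as were 9.8% of genes there, at 26.8 and 25.8 CPM in GAL and at 11.3 and 17.4 CPM in WT (not called by edgeR). Gclc ranged from -0.68 to 0.84 over 17 gates, Txnrd1 from -0.24 to 0.86 over 19 and Srxn1 from -0.45 to 0.79 over 13. Nqo1 passed the filter only in alveolar macrophages, at -0.34 ± 0.54 log2 units.

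A test of whether the difference between GAL and WT itself varied across the 19 gates called 0% of 13180 genes (345 at an unadjusted p under 0.05). Its unadjusted p was 0.0029 for Gpx3, 0.0075 for Slc7a11 and 0.0115 for Sod2, with adjusted p-values of 0.747, 1 and 1 by edgeR's quasi-likelihood test, so the differences in monocytes were not shown to differ from those in other gates. For the other tested members the unadjusted p lay between 0.326 for Gclm and 0.998 for Nfe2l2.

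Among the 71 pathway genes around the 10, 70 were tested in the whole lung, with 0 called, 8 at an unadjusted p under 0.05 and a median of -0.08 log2 units against 0.01 over all genes. The smallest p-values were those of Nox4, an oxidase of mesenchymal cells that makes hydrogen peroxide (1.70 ± 0.34, adjusted p = 0.768), and Ephx1, microsomal epoxide hydrolase (0.68 ± 0.18, adjusted p = 0.768), both by edgeR. Within gates 1 pathway gene was called, where 0.0226% of all gene and gate pairs were called. It was Maff, a small MAF protein of the kind that pairs with NRF2, in nonclassical monocytes, at 2.06 ± 0.36 log2 units higher in GAL (adjusted p = 0.0332 by edgeR). Of all 5408 genes of that gate 0.351% were called, and only 5 genes with RLE size factors. In that gate 47 of the 71 were tested, 26 had a positive difference and the median was 0.03 against -0.02 over all genes.

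Next to Maff in nonclassical monocytes came Hmox1, heme oxygenase (1.23 ± 0.29, adjusted p = 0.112), Fth1, the ferritin heavy chain (0.80 ± 0.19, adjusted p = 0.117), and Sqstm1, a receptor of selective autophagy that binds KEAP1 (0.84 ± 0.26, adjusted p = 0.224), by edgeR. In classical monocytes Maff was at 2.26 ± 0.33 (adjusted p = 0.0712), Sqstm1 at 0.96 ± 0.22 (adjusted p = 0.189) and Hmox1 at 1.14 ± 0.26 (adjusted p = 0.189), again without a call. Of the thioredoxins and peroxiredoxins, 9 were tested in nonclassical monocytes, 3 had a positive difference and none was called.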

How the data were processed

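Single cells of 4 libraries of dissociated mouse lung were counted with a droplet kit. The authors deposited UMI counts per gene and cell, made with fastp, STAR and Seurat on GRCm38 (mm10), per the submitters' processing notes; their settings and versions are not given in the sources used here. Barcodes with at least 500 UMIs, 300 genes and at most 20% mitochondrial counts were kept (Python 3.11.15, scanpy 1.11.5). The 1130 to 1901 cells of a library with the highest doublet scores were removed, a number set by the expected rate for the number of barcodes, because the caller's own threshold removed 0.008% of 1 library. A gate needed at least 2 markers of its list and a score 1.5 times the next. Counts were summed per gate and library, for gates with at least 30 cells in each, and tested with edgeR 4.0.16 (quasi-likelihood, TMM scaling, filter on low counts, Benjamini-Hochberg adjustment over all genes; R 4.3.3). The standard error is the log2 fold change over the root of F and is approximate. DESeq2 1.42.0 was an alternative.

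Cells are not replicates, and n is 2 libraries per genotype. The labels do not say whether libraries came from separate mice, so p-values of GAL against WT measure no more than the spread between libraries. The tests between gates fitted library as a block. Their p-values measure the spread left among the sums of the same 4 libraries. An exact permutation test of 2 against 2 cannot go below 0.333 and was not used. The SD of a gate mean spans both genotypes. Intervals of 0 counts cover counting error only. The members, pathway lists and tests were chosen with earlier results of these data known. All 10 members are described, and from each pathway list up to 4 genes with the smallest p in a comparison. The edgeR script was tested on simulated data. The Txnrd1 gene overlaps Eid3 on its strand, with 1644 UMIs counted for Eid3, and Gclm overlaps a gene on the opposite strand with 671 UMIs.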

Additional observations from a re-analysis of the deposited data

How the results depend on the processing

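Within gates, 2 pairs of a member and a gate were called. It was 0 with RLE size factors, 10 with no filter on low counts and 4 with DESeq2. With cells taken by cluster it was 0, but no cluster was named nonclassical monocyte, so that gate has no value. Over all genes of nonclassical monocytes, 19 were called, against 5 with RLE size factors and 173 with no filter. In the whole lung 0 members were called by edgeR on all 4 libraries, and of all genes 0 by edgeR and 31 with DESeq2. Without GAL replicate 2 the Gpx3 difference was 1.68 log2 units. For the difference between gates 0 members were called, and 3 with no filter on low counts. The 3 were Slc7a11, Gpx3 and Sod2 among 268 genes. With no filter, Gpx3 was also called within B cells, smooth muscle, general capillary cells and the type 1 conventional and migratory dendritic cell gates. Calls between gates stayed between 108 and 135. The cause of these changes was not tested.

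With 1 library left out, the whole-lung log2 difference ran from -0.30 to 0.10 for Nfe2l2, from -0.12 to 0.42 for Sod2, from -1.16 to 1.35 for Slc7a11, from -0.14 to 0.060 for Gclm, from -0.13 to 0.27 for Gclc, from -0.12 to 0.84 for Nqo1, from -0.45 to 0.18 for Txnrd1 and from -0.53 to 0.42 for Srxn1. For Gpx3 it ran from 0.76 to 1.68 in the whole lung, from -0.17 to 1.15 in aerocytes and from -0.20 to 0.49 in adventitial fibroblasts. With equal composition of gates, Nfe2l2 was at 0.031 in the whole lung. A lone library left in a group gives no spread of its own, so only differences are given for those fits of GAL against WT. No paired analysis was possible because nothing in the labels pairs a GAL library with a WT library. Depth limits Nqo1 and the low members of small gates.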
